A study of Mus musculus with 37 samples.

Results

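Parvalbumin (PV) interneurons and somatostatin (SST) interneurons are both rare GABA neurons of the nucleus accumbens, a part of the ventral striatum where amphetamine (AMPH) raises dopamine. The 200 bp regions described here had more open chromatin in PV nuclei than in the surrounding nuclei, but not in SST nuclei. They were selected on saline libraries: in CPM (counts divided by the library total, times 1000000), the log2 ratio of PV immunoprecipitated nuclei (IP) to the unbound fraction (UF), with 0.5 CPM added to each mean, was at least 1 with an IP mean of at least 2 CPM, and the same ratio in SST nuclei was 0 or less. Of 132260 PV regions that overlap an SST region by 1 bp or more, 1410 (1.07%) met the rule, and these are called members. They are 9.7% of the 14532 regions that met the PV condition, whereas 6986 of those also had an SST ratio of at least 1 and 6136 lay in between.

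Chromatin was profiled by ATAC-seq, in which the Tn5 transposase inserts adapters into accessible DNA. All mice were adult compound heterozygotes (P60-210) that carry Rosa-LSL-Sun1-GFP, a nuclear envelope tag switched on by Cre, with Pvalb-IRES-Cre or Sst-IRES-Cre, so that nuclei are tagged wherever the driver has been active, past activity included. Tagged nuclei of 1 mouse, both accumbens samples together, were pulled down with anti-GFP antibody, and the supernatant gave UF. The 60 min PV groups were IP and UF from mice killed 60 min after 1 injection of 3 mg/kg AMPH and IP and UF after saline, with 4 libraries each. The 24 h PV groups were IP and UF taken 24 h after the last of 6 daily AMPH injections (4 libraries each) and IP (3) and UF (4) after 6 daily saline injections, and the SST groups were IP and UF after saline (3 each). Per the labels, acute treatment followed a mock injection on the day before, the dose is stated for the acute AMPH mice and in the series' design text, the time after saline in the SST groups is not stated, and all buffers for ATAC-seq held sodium butyrate, an inhibitor of histone deacetylases. Whether an IP and a UF library come from the same mouse is not stated either.

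PV interneurons are fast-spiking cells that inhibit the spiny projection neurons around them, and their calcium buffer parvalbumin is encoded by Pvalb. SST interneurons are a separate class that releases the peptide encoded by Sst. An accessible region far from a gene start is a candidate enhancer, and accessible regions differ more between cell types there than at promoters.

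No genome sequence of the build was at hand, so sequence is shown only where a member reaches into a promoter window of the RefSeq table for GRCm38.p6, the assembly of mm10. There were 27 such members, at 27 genes, among 21263 windows. The following set shows the 250 bases before the gene start for the genes with the 4 highest 60 min AMPH folds among the promoter members called in all 3 comparisons of IP with UF, then for Atf3, another of these and one whose whole 200 bp lie upstream of the start, and for Kcns1, a potassium channel subunit on a list of fast-spiking genes. The genes were chosen after their values were seen. Capitals mark the bases covered by the member.
Nupr1, a stress-induced chromatin protein (chr7:126625471-126625720, minus strand): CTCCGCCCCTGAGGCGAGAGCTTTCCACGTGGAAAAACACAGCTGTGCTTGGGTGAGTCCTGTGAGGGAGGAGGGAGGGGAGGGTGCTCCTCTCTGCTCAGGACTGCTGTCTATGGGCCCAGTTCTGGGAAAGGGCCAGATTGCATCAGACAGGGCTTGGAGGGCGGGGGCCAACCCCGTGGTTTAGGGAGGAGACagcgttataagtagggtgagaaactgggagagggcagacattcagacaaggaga
Slco1c1, a thyroid hormone and organic anion transporter of brain endothelium (chr6:141524104-141524353, plus strand): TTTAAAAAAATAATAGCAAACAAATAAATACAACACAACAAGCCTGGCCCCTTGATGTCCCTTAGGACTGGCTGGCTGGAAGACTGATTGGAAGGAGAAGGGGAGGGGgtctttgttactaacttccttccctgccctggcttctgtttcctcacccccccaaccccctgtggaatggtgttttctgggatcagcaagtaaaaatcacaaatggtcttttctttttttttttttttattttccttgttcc
Map3k6, a MAP kinase kinase kinase (chr4:133240568-133240817, plus strand): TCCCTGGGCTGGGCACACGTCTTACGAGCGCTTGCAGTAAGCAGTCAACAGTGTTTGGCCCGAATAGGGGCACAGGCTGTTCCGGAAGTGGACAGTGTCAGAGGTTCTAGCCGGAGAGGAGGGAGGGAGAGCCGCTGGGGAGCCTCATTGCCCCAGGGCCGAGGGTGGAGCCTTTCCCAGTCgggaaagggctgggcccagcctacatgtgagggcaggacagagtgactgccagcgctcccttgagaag
Shc1, an adaptor of receptor tyrosine kinases (chr3:89421371-89421620, plus strand): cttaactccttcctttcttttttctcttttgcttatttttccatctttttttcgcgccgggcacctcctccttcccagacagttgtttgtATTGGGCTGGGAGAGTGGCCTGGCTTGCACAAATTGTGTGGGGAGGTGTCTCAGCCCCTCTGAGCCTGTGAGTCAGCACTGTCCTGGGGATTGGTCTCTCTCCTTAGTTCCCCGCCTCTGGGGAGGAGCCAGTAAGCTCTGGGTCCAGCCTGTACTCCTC
Atf3, a stress-responsive bZIP transcription factor (chr1:191183334-191183583, minus strand): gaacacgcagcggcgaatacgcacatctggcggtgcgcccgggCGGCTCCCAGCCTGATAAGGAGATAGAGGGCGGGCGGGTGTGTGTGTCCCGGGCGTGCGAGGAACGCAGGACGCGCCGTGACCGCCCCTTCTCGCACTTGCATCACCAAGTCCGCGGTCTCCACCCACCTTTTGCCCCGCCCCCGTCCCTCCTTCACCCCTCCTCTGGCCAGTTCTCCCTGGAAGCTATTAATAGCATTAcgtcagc
Kcns1, an electrically silent subunit of voltage-gated potassium channels (chr2:164171114-164171363, minus strand): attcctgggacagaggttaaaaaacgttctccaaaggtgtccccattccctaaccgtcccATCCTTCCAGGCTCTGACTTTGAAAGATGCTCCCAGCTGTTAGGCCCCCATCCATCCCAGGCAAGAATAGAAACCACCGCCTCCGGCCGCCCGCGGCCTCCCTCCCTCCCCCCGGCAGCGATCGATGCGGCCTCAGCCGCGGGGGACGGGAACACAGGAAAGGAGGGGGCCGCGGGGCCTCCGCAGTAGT

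Motifs were searched on both strands of the whole windows (250 bases before to 50 after the start). The E-box CAGCTG, seen within the capitals of Nupr1 and Kcns1, was in 6 of 29 windows that a member overlaps (20.7%), in 14.9% of the 10223 windows that any PV region with an SST overlap reaches (open windows) and in 15.6% of all windows. The E-box CATCTG was in 6 (20.7%), in 10.6% of open windows and in 14.6% of all. The AP-1 motif TGANTCA was in 3 (10.3%), in 4.45% of open and in 6.99% of all windows, and the ETS motif CCGGAAGT, seen in Map3k6, in 1 (3.45%), in 8.29% of open and in 5.15% of all windows. A GATA sequence (AGATAA) was in 2 (6.9%, against 4.89% of open and 9.65% of all windows) and an NFI site (TTGGCA) in 3 (10.3%, against 10.4% and 13.1%). A nuclear receptor site (AGGTCA) was in 3 (10.3%, against 10.5% and 14.7%), and the longer ROR/ERR-like AAGGTCA, which contains it, in 1 (3.45%, against 2.47% and 4.08%). MEF2-like (CTATTTTTA), homeobox (TAATTA), SOX (AACAAT), CRE (TGACGTCA), FOX (TGTTTAC), EGR (GCGTGGGCG), CTCF core (CCAGGGGGC) and ROR/ERR-like TGACCTTTG letters were in 0 of the 29, and in 0.4, 4.53, 9.05, 2.23, 3.01, 0.828, 1.29 and 0.447% of all windows, in this order. Of open windows they were in 0.186, 2.05, 5.07, 3.48, 2.21, 1.23, 1.84 and 0.274%. A match describes letters only and is not a bound site.

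Total counts ran from 650666 to 15120963 per library, and the shallowest were among the 24 h libraries. The summed CPM of regions in or near Pvalb, the gene that drives the tag, was 38.3 to 77.3 in AMPH PV IP libraries against 5.56 to 7.41 in AMPH UF at 60 min. At 24 h it was 40.1 to 47.7 in AMPH IP against 3.66 to 8.81 in AMPH UF, while in SST nuclei it was 5.42 to 11.2 in IP against 6.06 to 6.93 in UF. The single Sst region had 10.6 to 16.4 CPM in SST IP against 1.02 to 1.71 CPM in SST UF. In the saline PV libraries at 60 min it had 2.3 to 6.09 CPM in IP against 1.24 to 2.16 CPM in UF, without overlap. PV IP and UF overlapped there after AMPH (0.746 to 4.33 against 0.659 to 2.36 CPM). They also overlapped at 24 h after AMPH (0 to 3.48 against 0.89 to 2.06 CPM) and after saline (0 to 1.45 against 1.13 to 9.09 CPM). In bulk nuclei a larger share of a cell type and more open chromatin per nucleus cannot be told apart.

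A set of IP libraries stood apart on markers of endothelial cells, which line blood vessels. The summed CPM over 24 endothelial genes was 931 in saline PV IP library 4 against 490, 612 and 527 in saline libraries 1, 2 and 5, and 512 to 550 in saline UF. In AMPH IP at 60 min it was 561, 775, 488 and 683 in libraries 1 to 4, against 487 to 535 in AMPH UF. At 24 h it was 962 to 1422 in AMPH IP against 566 to 645 in AMPH UF, and 1080 to 1371 in saline IP against 537 to 637 in saline UF. In SST nuclei the order was the other way, 432 to 456 in IP against 532 to 558 in UF. Cldn5, a tight junction gene that marks these cells, had 31.7 CPM in saline PV IP library 4 and 4.4, 11.9 and 5.56 CPM in the other three saline IP libraries. Emcn, also on the list, went the other way at 60 min saline. It had 8.34 to 13.4 CPM in IP against 40.9 to 57.4 CPM in UF. In that comparison IP lay above UF without overlap at 8 of the 24 genes and below at 1. At 60 min AMPH 1073 members were called higher with all libraries, 1050 without AMPH IP library 2 and 1131 without AMPH IP library 4. Each of these left-out fits still held the other high library, and both were never left out together. AMPH IP library 4 was also the shallowest at 60 min, with 1386842 counts. At 24 h every IP library was high, so no 24 h result can be given without such libraries. On a list of mural cell and fibroblast markers, saline UF library 5, one of those that chose the members, had a summed CPM of 779 against 283 to 304 in the other saline UF libraries, and AMPH UF library 1 had 556 against 294 to 351 in the other AMPH UF libraries. Without AMPH UF library 1, 987 members were called at 60 min AMPH. At 24 h this list had 303 to 386 in AMPH IP against 238 to 269 in AMPH UF, and 360 to 392 in saline IP against 260 to 321 in saline UF. Without saline UF library 5 the rule found 1440 regions, and the part of mural cells and fibroblasts in the members' folds was not tested.

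Among the members, the values that chose them were moderate. The median saline level was 6.44 CPM in PV IP against 2.15 CPM in PV UF, and 2.15 CPM in SST IP against 2.84 CPM in SST UF. The median PV log2 ratio was 1.27, with 1041 members under 1.5 and 69 at 2 or more, and none reached 3. The median SST log2 ratio was -0.28. For 1050 members it lay above -0.5, so in most of them the SST ratio was close to 0, and for 71 it was -1 or less. All 4 saline PV IP libraries lay above all 4 saline UF libraries at 1033 members (73.3%, and at 16.2% of all regions in the table), which is a description of the selection and no test. Close to the limits, members near Tmod3, Aunip and Msra had a PV log2 ratio of 1.0003, 1.0006 and 1.0007, and regions near Chit1, Bicd2 and Psd3 stayed out at 0.9989, 0.9980 and 0.9979. Members near Ube2ql1, Inpp5d and Pdcd6ip had an SST log2 ratio of -0.0009, -0.0013 and -0.0017, against 0.0005 and 0.0006 for regions that stayed out near Sgcz and Ptpro. At the level limit, members near Cntnap5b, Fbxo4 and Brinp3 had 2.014, 2.036 and 2.058 CPM in saline IP, against 1.993, 1.965 and 1.922 CPM near Nrg1, Slc24a5 and Thumpd2.

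Whether the members are also more open in PV nuclei of other mice was asked first in the 60 min AMPH libraries, which the rule did not use. AMPH IP lay above AMPH UF at nearly all members: the mean was higher in IP at 1397 of 1410, with a median level of 6.13 CPM in IP against 2.33 CPM in UF. The median log2 ratio was 1.17, against -0.19 over all 132260 regions that overlap an SST region. Each AMPH IP library was above each AMPH UF library at 721 members (51.1%), against 12.8% of all regions in the table. In edgeR's quasi-likelihood test with Benjamini-Hochberg adjustment over the whole table, where called means an adjusted p under 0.05, 1073 of 1410 members (76.1%) were called higher in IP and 0 lower. Of all regions tested, 21.5% were called higher. A filter on low counts had kept 1237 of the 1410, and without it 1112 of 1410 (78.9%) were called, against 21.3% of all regions. In the fit without the filter, 93.5% of the regions open in both PV and SST nuclei and 86.5% of the regions in between were called.

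**Figure D1:**
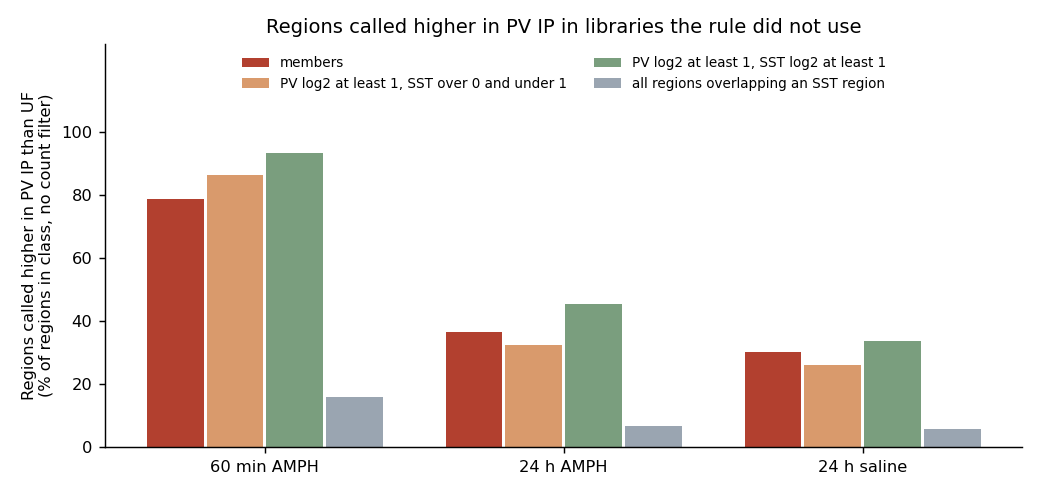
Percentage of regions called higher in PV IP than in UF (edgeR, adjusted p under 0.05, no filter on low counts) for members, for the other 2 classes of PV-open regions and for all regions that overlap an SST region, in 3 comparisons whose libraries the rule did not use. At 60 min AMPH 78.9% of members and 16% of all overlapping regions were called, and at 24 h 36.5% (AMPH) and 30.3% (saline) of members.

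Members took a larger part of the reads in each PV IP library than in any PV UF library of the same table. At 60 min the share of counts in members was 1.04 ± 0.138% in AMPH IP against 0.41 ± 0.025% in AMPH UF (SD, n = 4 each). At 24 h it was 0.815 ± 0.0635% in AMPH IP against 0.287 ± 0.0154% in AMPH UF (n = 4 each), and 0.764 ± 0.0367% in saline IP (n = 3) against 0.303 ± 0.0192% in saline UF (n = 4). The SST libraries, which helped to choose the members, had 0.365 ± 0.0186% in IP against 0.484 ± 0.00961% in UF (n = 3 each).

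**Figure D2:**
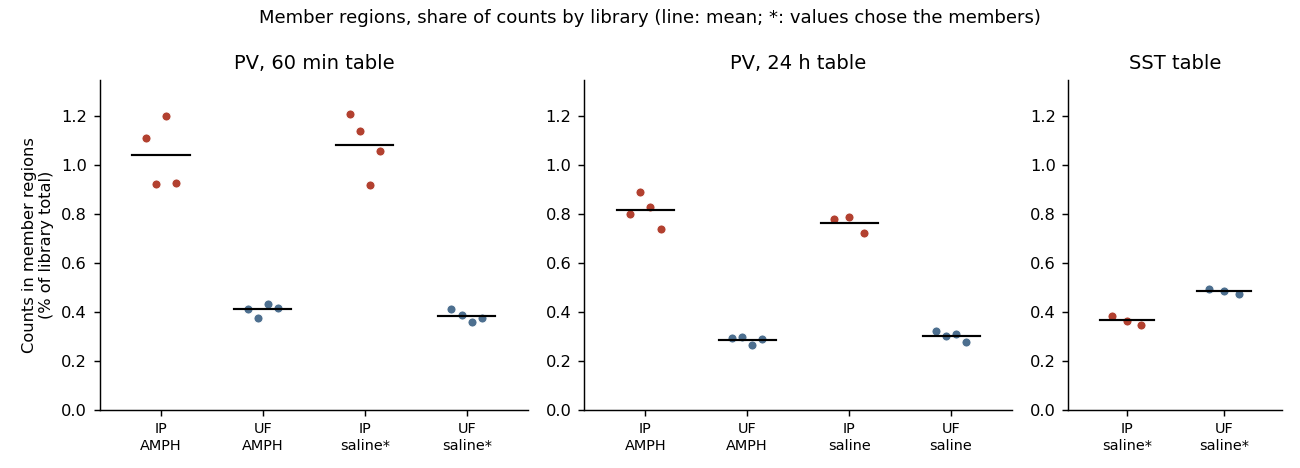
Share of each library's counts that falls in member regions (y axis, percent), or in the overlapping regions of the SST and 24 h tables. Each point is a library and each line a group mean. Every PV IP library lies above every PV UF library of its table, and SST IP lies below SST UF, where asterisks mark libraries whose values chose the members.

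The 24 h table gave a check in other mice, treated repeatedly, and with another set of regions. The labels divide these libraries into Iso1 and Iso2, and IP and UF are unbalanced over them: AMPH IP has 1 Iso1 and 3 Iso2 libraries against 3 Iso1 and 1 Iso2 in AMPH UF, and saline IP has 3 Iso2 against 2 Iso1 and 2 Iso2 in saline UF. The tests held an Iso term, but levels, shares and counts without overlap take no account of it. The table held a region overlapping 1258 members (89.2%, against 78.8% of all overlapping regions), which makes 1256 separate regions. After AMPH the median level of these was 4.68 CPM in IP against 1.61 CPM in UF, and after saline 4.4 CPM in IP against 1.72 CPM in UF. In AMPH libraries 495 of 1256 were called higher in IP and 0 lower, with 13.6% of all tested regions called higher. In saline libraries 395 were called higher and 1 lower, with 11.1% of all tested regions called higher. IP and UF did not overlap, with IP higher, at 570 of the 1256 regions after AMPH (45.4%, against 12.9% of all regions in the table). After saline this held at 477 (38%, against 12.2%). Without the Iso term the counts called were 574 and 396, and with Iso2 libraries alone the saline count was 404. Without AMPH UF library Iso2-1 the AMPH count was 321, and without saline IP library Iso2-1 or Iso2-2 the saline count was 252 or 225. Over the 3 comparisons together, 266 members were called higher in each and 267 in none, 111 of which were not tested in any. All 3 tests were run at 1010 members. The share of all regions called in each of the 3 was not computed, so the 266 have no background beside them.

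Choosing the members again without 1 saline IP library, an alternative added after seeing the data, gave the following shares. Without library 4, the one high in endothelial markers, 1672 regions met the rule, 1300 of which are members, and 1211 of the 1672 (72.4%) were called higher at 60 min AMPH. At 24 h 459 of the 1459 overlapping regions (31.5%) were then called after AMPH and 347 (23.8%) after saline. Leaving out library 1, 2 or 5 in place of 4 gave 70.9 to 75.4% at 60 min AMPH, 38.3 to 42% at 24 h AMPH and 31.1 to 36% at 24 h saline.

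The member of Pvalb itself lies in the gene (chr15:78205339-78205538, 0.962 kb from its start). It had 7.88, 5.75, 7.68 and 7.21 CPM in AMPH IP libraries, against 2.35, 1.59, 1.98 and 1.18 CPM in AMPH UF libraries at 60 min. The 2 sets did not overlap, and the log2 fold was 2.11 ± 0.35 (SE, edgeR, adjusted p = 4.93e-05). At 24 h its overlapping region was higher in IP by 2.00 on the log2 scale after AMPH (adjusted p = 0.00505) and by 1.94 after saline (adjusted p = 0.024). In SST nuclei, where the values helped to choose it, it had 1.28, 1.22 and 1.28 CPM in IP against 1.44, 1.28 and 2.29 CPM in UF. The other 4 Pvalb regions are not members: 2 overlap no SST region, and 2 had SST log2 ratios of 0.50 and 0.35 beside PV ratios of 3.57 and 2.36. The largest PV ratio at Pvalb therefore belongs to a region that missed the SST condition.

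Members that were called at 60 min AMPH, with every IP library above every UF library there and a tested 24 h region, were ranked by the smallest of their 3 folds, and the first 12 are named. A member within Sergef, named for a guanine nucleotide exchange factor domain and a link to secretion (chr7:46615641-46615840), had 20.3, 18.1, 21.2 and 20.2 CPM in AMPH IP against 2.91, 2.31, 2.47 and 3.07 CPM in AMPH UF. At 24 h it had 11.6, 20.8, 23.2 and 16.3 CPM in AMPH IP against 0.833, 1.23, 1.78 and 3.06 CPM in AMPH UF, and 12, 12.6 and 23.1 CPM in saline IP against 0, 3.4, 0.881 and 0.568 CPM in saline UF. Every IP library lay above every UF library in the 3 comparisons, with log2 folds of 3.05 ± 0.26 (adjusted p = 1.73e-07), 3.15 ± 0.46 (adjusted p = 3.28e-08) and 3.42 ± 0.58 (adjusted p = 2.91e-06) at 60 min AMPH, 24 h AMPH and 24 h saline. A member within Pigu, a subunit of the transamidase that attaches GPI anchors (chr2:155309362-155309561), had 22.5, 20.7, 21.2 and 16.6 CPM in AMPH IP against 2.77, 2.45, 3.46 and 1.65 CPM in AMPH UF at 60 min. Its log2 fold was 3.11 ± 0.28 (adjusted p = 1.85e-07). Neither member ranged widely over the AMPH IP libraries.

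A calcium channel gene and a matrix gene were among the others. A member within Cacna1d, the pore of an L-type calcium channel (chr14:30460332-30460531), had 4.78, 5.97, 10.1 and 3.61 CPM in AMPH IP against 1.52, 1.19, 1.48 and 0.707 CPM in AMPH UF at 60 min. Its log2 fold was 2.49 ± 0.40 (adjusted p = 3.63e-05), and it was called at 24 h after AMPH (adjusted p = 3.45e-06) and after saline (adjusted p = 0.0247). A member within Egflam, which encodes the synaptic matrix protein pikachurin (chr15:7289541-7289740), had 5.91, 4.05, 6.27 and 5.05 CPM in AMPH IP against 1.52, 0.198, 0.494 and 1.41 CPM in AMPH UF. The log2 fold was 2.85 ± 0.50 (adjusted p = 8.06e-05). A member 47 kb from Tspan11, a tetraspanin gene (chr6:127840293-127840492), ranged more widely, with 19.4, 11.7, 25.3 and 6.49 CPM in AMPH IP against 3.32, 2.12, 4.28 and 2.12 CPM in AMPH UF. Its log2 fold was 2.61 ± 0.35 (adjusted p = 6.69e-06). That its lowest IP library was above its highest UF library, and that it was called, was required by the choice of these members.

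The other members of this rank lay within Rnf144b, an E3 ubiquitin ligase, or outside genes. Outside genes, the nearest genes were N6amt1, a methyltransferase (90.3 kb), Phlda1 (7.66 kb), the transcription factor Klf14 (52.6 kb), Xylt1, which starts the sugar chains of proteoglycans (175 kb), Gm47655 (59.8 kb) and A1cf, an RNA editing cofactor (44 kb). Their 60 min AMPH log2 folds ran from 2.53 (A1cf) to 3.04 (Klf14), with adjusted p from 4.23e-06 to 0.000344. All were called in both 24 h comparisons except Phlda1, whose 24 h AMPH fold had an adjusted p of 0.0602. Several 24 h UF libraries held no read here (Rnf144b in 3 of 4 AMPH UF libraries), so the 24 h folds of these are not quoted.

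**Figure D3:**
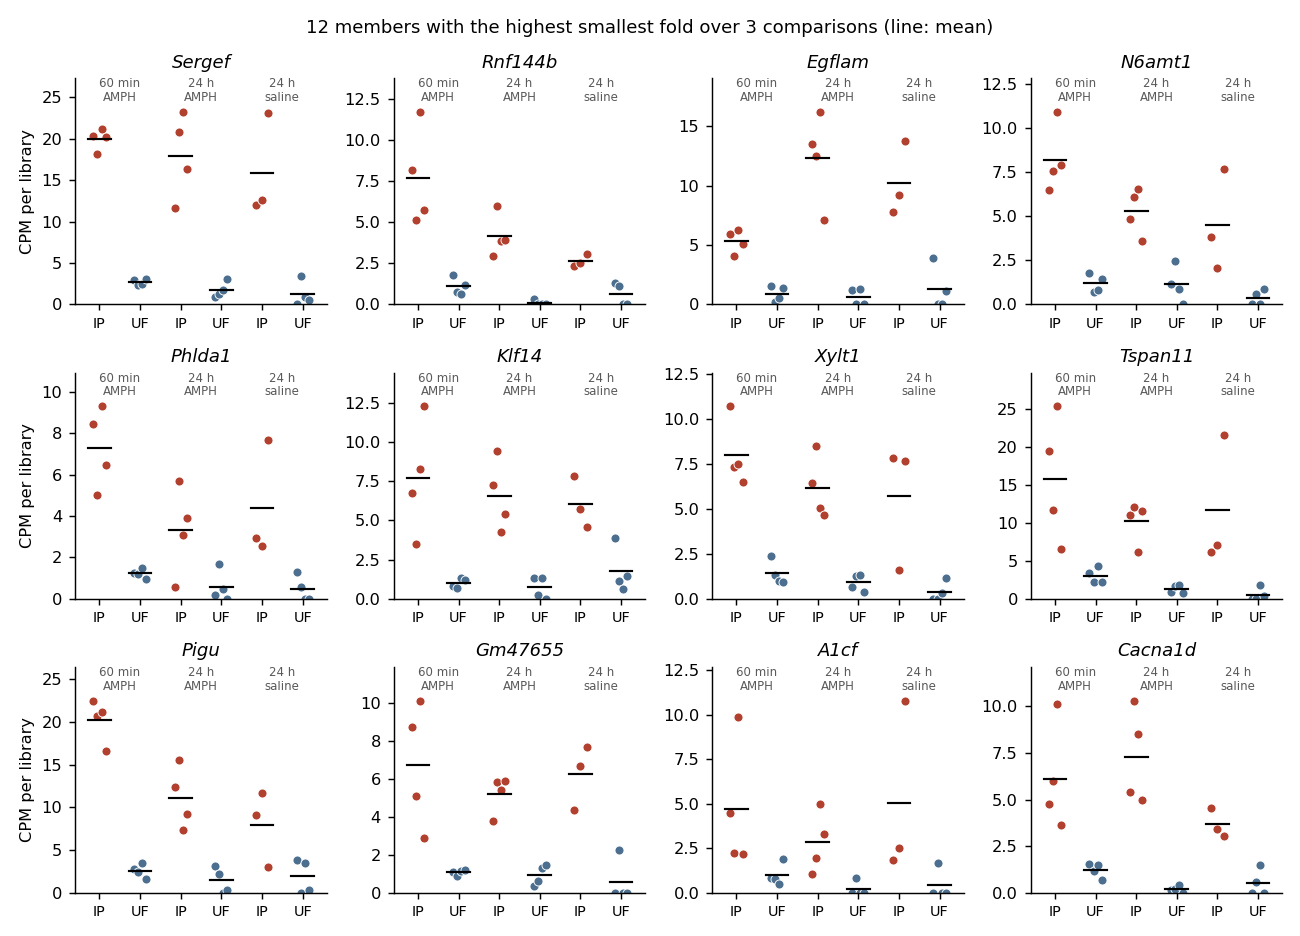
CPM per library (y axis, linear, from 0) of the 12 members with the highest smallest fold, each named by the gene it lies in or nearest to. Red points are PV IP libraries, blue points UF libraries and lines group means, for 60 min AMPH, 24 h AMPH and 24 h saline. In the 60 min AMPH pair every IP library lies above every UF library, by the rule that chose these 12. IP libraries of the Tspan11 member range from 6.49 to 25.3 CPM.

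At the other end, 5 members had the lowest 60 min AMPH folds, with no call in either direction. A member within Pde4d, a cAMP phosphodiesterase, had 0, 0.959, 2.43 and 2.16 CPM in AMPH IP against 2.35, 2.12, 1.32 and 3.54 CPM in AMPH UF (log2 fold -0.66 ± 0.55, adjusted p = 0.349). Members near Mob1b and Csf1 and within Lars and Tmem44 had log2 folds of -0.36, -0.12, -0.10 and -0.07. The Csf1 member, near a growth factor gene of microglia and macrophages, had been chosen with 15.4 CPM in saline IP library 5 and 4.29 to 5.74 CPM in the other three saline IP libraries. In AMPH IP it had 2.53, 1.81, 3.03 and 6.49 CPM, which overlaps the 2.8 to 4.43 CPM of AMPH UF.

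Gene lists, of which there were 18, held few members. In all, 788 of 16338 genes with an overlapping region in the body or within 2 kb (4.82%) held a member. On the PV interneuron list 4 of 23 genes did, and 4 of its 217 regions were members (1.84%, against 1.07% of all overlapping regions). Besides Pvalb, a member within Cntnap4, a presynaptic adhesion protein, was called higher (4.22, 3.09, 4.65 and 2.16 CPM in AMPH IP against 1.25, 1.06, 1.48 and 0.707 CPM in AMPH UF, log2 fold 1.82 ± 0.41, adjusted p = 0.000945). A member in Syt2, the fast calcium sensor of PV synapses, was not (4.78, 5.11, 2.83 and 4.33 CPM against 3.32, 1.79, 2.47 and 2.83 CPM, adjusted p = 0.0541, but 0.0287 without AMPH IP library 3 and 0.0499 without library 4), and one in Erbb4, a neuregulin receptor, was under the count filter. On the list of glutamate and GABA receptors 4 of 18 genes held 5 members (1.56% of 321 regions), 4 of which were called higher at 60 min AMPH. Members in Grin2b, an NMDA receptor subunit (9.56, 3.41, 5.05 and 5.05 CPM in AMPH IP against 1.38, 1.59, 1.48 and 2.12 CPM in AMPH UF, log2 fold 1.94 ± 0.39, adjusted p = 0.000357), Gabrb2, a GABA-A receptor subunit (log2 fold 2.01 ± 0.47, adjusted p = 0.00125), and Grik2, a kainate receptor subunit (1.39 ± 0.49, adjusted p = 0.0229), were called, and the one named in Gria4, an AMPA receptor subunit, was not (0.88 ± 0.46, adjusted p = 0.124, but 0.0381 without AMPH IP library 2 and 0.0476 without library 4). In Gabrb2 the groups overlapped, with 8.44, 3.52, 11.5 and 0.721 CPM in AMPH IP against 1.66, 2.31, 1.98 and 0.707 CPM in AMPH UF. The Grik2 call was lost without AMPH IP library 3 (8.29 CPM there, 0.721 to 3.41 CPM in the other three, adjusted p = 0.28), and likewise without UF library 1, 2 or 3 (0.072 to 0.128) and with DESeq2 (0.0853). At 24 h the regions overlapping the Cntnap4, Grin2b and Gabrb2 members were under the count filter. Those of Syt2, Grik2 and Gria4 were not called after AMPH (edgeR adjusted p = 0.634, 0.112 and 0.594). After saline they were not called either (0.346, 0.347 and 0.908).

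The perineuronal net list, genes of the matrix that encloses PV cells, held 1 member, in Tnr (tenascin-R). It had 8.72, 7.03, 7.28 and 11.5 CPM in AMPH IP against 2.08, 2.31, 1.65 and 4.01 CPM in AMPH UF (log2 fold 1.91 ± 0.34, adjusted p = 0.000106). At 24 h its folds of 0.97 (AMPH) and 1.13 (saline) were not called. The list of potassium and sodium channels of fast spiking held 1 member of 226 overlapping regions, at the Kcns1 start. It had 6.47, 3.09, 2.43 and 5.05 CPM in AMPH IP against 1.25, 1.32, 0.823 and 1.89 CPM in AMPH UF at 60 min (log2 fold 1.77 ± 0.43, adjusted p = 0.00168). At 24 h its log2 fold was -0.49 after AMPH (adjusted p = 0.789) and 0.75 after saline (0.648). The mitochondrial biogenesis list held 1, in Ppargc1a, the coactivator PGC-1alpha, which was under the count filter (1.39 to 2.43 CPM in AMPH IP against 0.553 to 1.32 CPM in AMPH UF). The lists of interneuron regulators from the medial ganglionic eminence, SST interneurons, spiny projection neurons, cholinergic interneurons, oligodendrocytes and their precursors, astrocytes, microglia, cortical glutamatergic neurons, immediate early and late response genes, and GABA synthesis and release held 0 members in or within 2 kb of their genes. By nearest gene at any distance, the list of medial ganglionic eminence regulators had 8 members (near Maf, Mef2c, Satb1 and Zeb2, 4 called at 60 min AMPH), which is 0.567% of members against 0.265% of all overlapping regions. The PV list then had 8 (5 called, 0.567% against 0.277%), the receptor list 9 (8 called, 0.638% against 0.359%), the fast-spiking channels 4 (all 4 called, 0.284% against 0.228%), the endothelial list 3 (2 called) and the spiny projection neuron list 1, near the adenosine receptor gene Adora2a. The SST interneuron list still had 0.

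The genes with the most members were mostly long genes. Dock4, a Rac activator, Magi2, a synaptic scaffold, and Tenm2, a teneurin that binds across the synapse, held 5 members each, of which 4, 5 and 5 were called at 60 min AMPH. They span 401, 1485 and 1230 kb and hold 57, 94 and 101 overlapping regions. Cacna1a, the pore of P/Q-type calcium channels that trigger transmitter release, held 4 members in 25 regions, all 4 called. Plxna4, a semaphorin receptor, and Nav3 held 4 each, with 3 called in each. Mgll, the enzyme that breaks down the endocannabinoid 2-AG, held 3 in 17 regions, 2 of them called, and Ttc39b, Sipa1l2 and Vps13d held 3 each, with 1, 1 and 3 called. Over all members 76.1% were called at 60 min AMPH, and 1.07% of all overlapping regions were members. These genes were picked for their number of members, and neither share was tested by gene.

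Members were mostly away from gene starts and within genes. Of the members, 64.5% lay inside a protein-coding gene, against 44.8% of regions open in both PV and SST nuclei and 58.4% of all overlapping regions. Of the 1359 with a start on their chromosome in the promoter table, 3.53% lay within 1 kb of one, against 1.37% of regions open in both and 13.4% of all. The median distance was 51.7 kb for members, 116 kb for regions open in both and 46.9 kb for all. Few members were neighbours of each other, with 360 within 100 kb of another and 8 overlapping another. Of the 48 members within 1 kb of a start 68.8% were called at 60 min AMPH, and of the 483 members over 100 kb from one 72.7%. At 24 h the order was the other way, with 50% and 33.6% of those with a region called after AMPH, and 58.7% and 25.9% after saline. The share called among all regions at these distances was not computed.

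**Figure D4:**
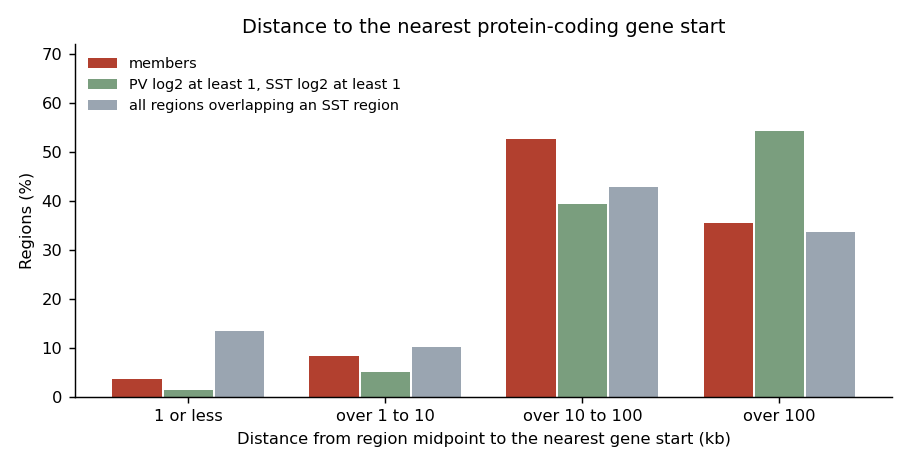
Percentage of regions (y axis) by distance from the region's midpoint to the nearest protein-coding gene start (x axis, kb), for members, regions open in both PV and SST nuclei and all regions that overlap an SST region. Members are rarer than all regions within 1 kb (3.53% against 13.4%) and rarer than regions open in both beyond 100 kb (35.5% against 54.2%).

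At the promoters, the Shc1 member gave the smallest adjusted p of the 6, with a log2 fold of 1.53 ± 0.17 at 60 min AMPH (adjusted p = 9.84e-07) and folds of 1.03 and 1.69 at 24 h after AMPH and saline. Nupr1 had a log2 fold of 2.01 ± 0.31 (adjusted p = 2.61e-05), Map3k6 1.85 ± 0.35 (0.000162) and Atf3 0.90 ± 0.26 (0.00734) at 60 min AMPH, and all were called at 24 h as well.

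At some members the highest IP libraries were those high in endothelial markers, but no correlation with these markers was computed. The Pecam1 member, which is on the endothelial list, ranged only from 9.51 to 12.1 CPM over the saline IP libraries. The Slco1c1 member (chr6:141524012-141524211) had 1.15, 2.81, 15.3 and 1.59 CPM in saline IP libraries 1, 2, 4 and 5, so 1 of the 4 libraries that chose it carried most of its level. At 60 min AMPH it had 1.69, 11.3, 2.02 and 7.93 CPM in IP against 1.94, 1.39, 1.32 and 2.36 CPM in UF. The groups overlapped there, and the fold (1.92 ± 0.49, adjusted p = 0.0027) was no longer called without IP library 2 (1.00, adjusted p = 0.117). At 24 h it had 27.7, 16.5, 12 and 13.9 CPM in AMPH IP against 0.999, 0, 0.89 and 2.16 CPM in AMPH UF, far apart. Its log2 fold there was 4.12 ± 0.49 (adjusted p = 1.75e-11).

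The 5 members with the lowest SST ratios, among those with at least 5 CPM in saline PV IP, fell into 2 kinds. Those near Spink13 and Epas1, the oxygen-sensing factor HIF-2alpha that is abundant in endothelium, and the one at the start of Tor4a, a torsin ATPase, had their highest saline IP level in library 4 (18.4, 12.9 and 19.4 CPM, against 1.46 to 7.02 CPM in the other three). All 3 were called in both 24 h comparisons, with log2 folds of 3.67, 2.56 and 4.01 after AMPH and 2.60, 3.05 and 3.32 after saline. At 60 min AMPH their folds were 1.77 (adjusted p = 0.00316), 1.18 (0.0536) and 0.99 (0.104), and the first was not called without IP library 2 (0.76, adjusted p = 0.193). Epas1 was called without AMPH IP library 1, 3 or 4 (adjusted p = 0.00993 to 0.0466) and Tor4a without library 1 or 3 (0.0385 and 0.0148). In SST nuclei Tor4a had 0.385, 0.304 and 0.319 CPM in IP against 2.29, 3.2 and 4.04 CPM in UF, values that chose it. Members in Nfic and Shb were highest in saline IP library 5 and were not called at 60 min AMPH (0.72, adjusted p = 0.157, and 0.79, adjusted p = 0.112), although Shb was called without AMPH IP library 2 (adjusted p = 0.0412).

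Split by the saline IP library in which a member was highest, the 149 members led by library 4 had 24 h median log2 ratios of 1.88 (AMPH) and 1.84 (saline), against 0.77 and 0.76 for the 401 members led by library 5. At 60 min AMPH both had 1.06. Of members with a 24 h region, 69.1% of those led by library 4 were called at 24 h AMPH, 39.9% of those led by library 1, 43.5% by library 2 and 21.8% by library 5. The share called among all regions led by each library was not computed. Among the 149, AMPH IP library 2 was the highest AMPH IP library at 43.6% and library 4 at 28.9%, the 2 AMPH libraries with the most endothelial signal, against 13.1% and 21.3% of all members. AMPH IP library 4 was the highest at a larger share, 42.4%, of the members led by saline library 5, and library 2 at 8.73%. For members led by saline library 1 the shares of AMPH IP libraries 2 and 4 were 4.11% and 8.04%. For those led by saline library 2 they were 20.7% and 14%. The endothelial list itself held 2 members, Slco1c1 and Pecam1, in 18 genes with an overlapping region. They are 2.94% of its 68 regions, against 1.07% of all overlapping regions and 1.84% on the PV interneuron list. The mural and fibroblast list held 1 member in 54 regions (1.85%). This member, in Myh11, was under the count filter at 60 min and not called at 24 h (edgeR adjusted p = 0.386 and 0.52). The Pecam1 member, in a gene for an endothelial adhesion molecule, was called at 60 min AMPH (11, 10.1, 10.9 and 5.05 CPM in AMPH IP against 4.57, 4.5, 6.09 and 5.66 CPM in AMPH UF, log2 fold 1.06 ± 0.29, adjusted p = 0.00503), although its IP library 4 lay among the UF libraries. By summed CPM, 19 of 24 endothelial genes had the higher mean in IP at 60 min AMPH, 21 at 24 h AMPH, 21 at 24 h saline and 9 of 21 in SST nuclei, and IP lay above UF without overlap at 6, 19, 17 and 4 of them. In the same order, IP lay below UF without overlap at 1, 1, 1 and 7 genes. None of the 24 genes had a summed CPM of 0 in any PV IP library. The same held in SST IP for the 21 with a region, so it does not tell PV from SST nuclei apart. The part of endothelial nuclei in the members' folds was not tested beyond leaving out libraries.

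**Figure D5:**
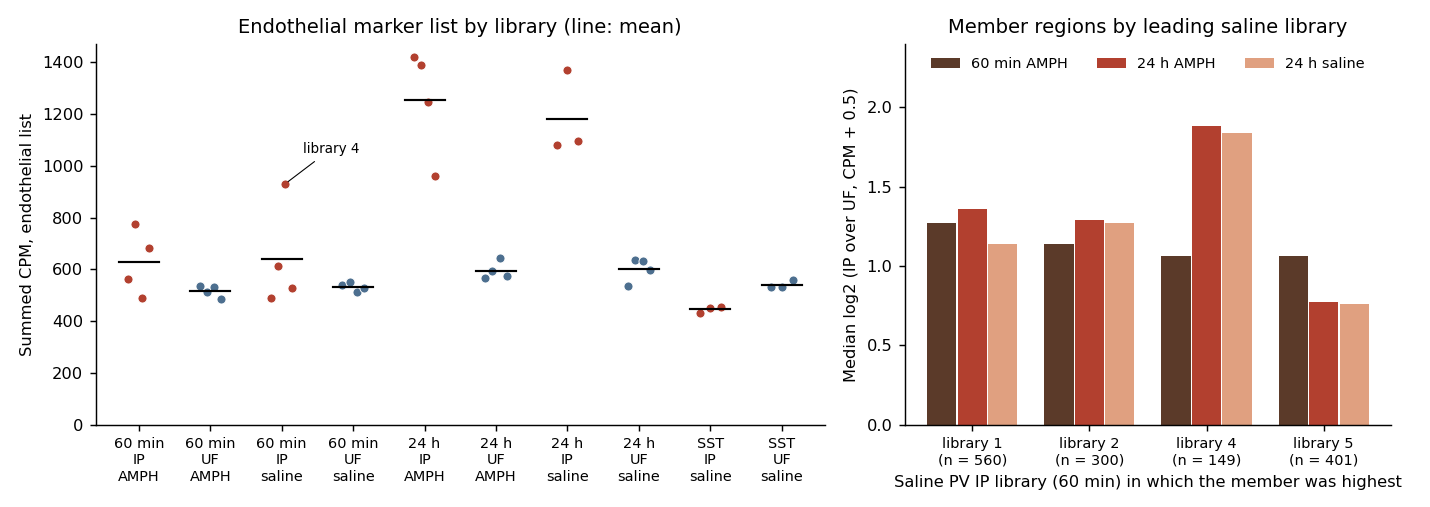
Left, summed CPM over the endothelial marker list (y axis) in each library, IP in red and UF in blue, with group means as lines, where saline PV IP library 4 (931) lies above the other three (490 to 612) and 24 h IP libraries reach 962 to 1422. Right, median log2 ratio of IP to UF over members, by the 60 min saline IP library in which the member was highest, in 3 comparisons. Members led by library 4 have the highest 24 h medians, 1.88 and 1.84.

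The median log2 ratio at 60 min AMPH was 0.95 for the 280 members with 2 to 4 CPM in saline IP, 1.17 for the 646 with 4 to 8 CPM and 1.25 for the 484 with 8 CPM or more. Of the 71 members with an SST log2 ratio of -1 or less 70.4% were called at 60 min AMPH, and of those above -0.5 76.8%. The order was the other way at 24 h, where 50% and 37.6% of those with a region were called after AMPH, and 41.9% and 30.7% after saline. Of the 71, 62 had such a region. The SST values that set these classes also chose the members, and the share called among all regions of these classes was not computed.

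Whether AMPH changes the members was asked at 24 h, where neither group chose them. In PV IP 0 of 1070 tested regions were called in AMPH against saline (0% of all tested regions were called), 23 had an unadjusted p under 0.05 and the smallest adjusted p was 1. In UF 0 were called (0.00516% of all tested regions), with 83 at an unadjusted p under 0.05 and a smallest adjusted p of 0.351. DESeq2 called 0 in both, with 36 and 109 at an unadjusted p under 0.05. The smallest p in IP was at a region 150 kb from Zfat, with 6.46, 2.49, 0.386 and 1.06 CPM in AMPH IP against 8.73, 4.13 and 3.07 CPM in saline IP (log2 fold -2.0 ± 0.71, edgeR adjusted p = 1). Regions in Tgfb1, a growth factor gene, and Tjp1, a tight junction scaffold, followed with log2 folds of -2.17 ± 0.77 and 1.32 ± 0.49 (edgeR adjusted p = 1 for both). In UF the smallest p was at a region in Adam23, a cell adhesion gene, with 0.999, 0.617, 4 and 2.16 CPM in AMPH UF against 0 CPM in all 4 saline UF libraries (edgeR adjusted p = 0.351). Regions in Hdac4 and near Tcte2 followed (adjusted p = 0.415 and 0.46). The median SE was 0.62 in IP. With Iso2 libraries alone 0 were called in IP. At 60 min the saline libraries had chosen the members, so AMPH against saline is a description: the median log2 ratio was -0.06 in IP and 0.08 in UF, against 0.05 and 0.03 over all overlapping regions.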

How the data were processed

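ATAC-seq libraries (37 in 10 groups) were given as the deposited raw counts per 200 bp region, in 3 tables of 205848 (60 min PV), 178637 (SST) and 171130 (24 h PV) regions on mm10. Per the submitters' processing notes, MACS2 2.1.2 was among the tools used. So were deepTools, the aligner Bowtie2 (2.3.4.3) and bedtools (2.25.0), and the notes also list DESeq2 (1.18.1) under R (3.4.4), FastQC (0.11.2) and the adapter trimmer cutadapt (1.8.3). Neither order nor settings are given, so effects of trimming, alignment and peak calling on the counts were not examined. Regions differ between tables, so tests were run only within a table.

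Members and gene lists were chosen with earlier results of these data known. Members were found with CPM on the column totals of the deposited counts. IP against UF, and AMPH against saline at 24 h, were tested on the counts as deposited with edgeR 4.0.16 (TMM scaling, filterByExpr, quasi-likelihood F test, Benjamini-Hochberg adjustment over the whole table) in R 4.3.3, with an Iso term at 24 h. Log2 folds and SE come from these fits, and CPM and median log2 ratios from column totals. Overlaps used 1 bp or more, and the join was checked against bedtools 2.31.1. The edgeR step was tested on simulated data. Genes come from RefSeq bounds, with 2 kb on either side for the lists; exons and introns were not used here. The named members are the 12 that replicated best, the 5 that replicated least, up to 4 for each gene list, the 10 genes with the most members, the 5 lowest in SST, those next to each threshold (1 is not reported here), and the 3 with the lowest p at 24 h. DESeq2 1.42.0 was an alternative, and the others were size factors, no filter, column totals, the replicate block, left-out libraries and other forms of the rule.

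No 2 libraries of a group agreed within sampling noise. Labels say that tissue came from single mice, but not that each library is a separate mouse, so p-values measure the spread between these libraries.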

Additional observations from a re-analysis of the deposited data

Results flagged for a closer look

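Among the named members, 13 of 241 groups of 4 libraries (5.39%) had 1 library far from the other three, and chance gives about 1 in 20. Of these, 5 were in the saline and AMPH PV IP libraries at 60 min. In saline IP, Slco1c1 had 15.3 CPM in library 4 against 1.15 to 2.81 CPM in the others, and Xylt1 had 8.99 CPM in library 4 against 10.1 to 10.3 CPM. Library 5 had 15.4 CPM at the member near Csf1, against 4.29 to 5.74 CPM, and 17.3 CPM in Shb, against 7.47 to 9.08 CPM. In AMPH IP, Pecam1 had 5.05 CPM in library 4 against 10.1 to 11 CPM in the others.

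The other 8 were UF libraries. In 60 min AMPH UF, library 1 had 1.38 CPM near Mob1b, against 2.12 to 2.18 CPM, and 3.18 CPM near Epas1, against 1.52 to 1.65 CPM. In 24 h AMPH UF, Rnf144b had 0.333 CPM in Iso1-1 and A1cf 0.823 CPM in Iso1-2, and the others were at 0. In 24 h saline UF library Iso1-2, Gm47655 had 2.27 CPM, Grin2b 2.27 CPM and A1cf 1.7 CPM, with the others at 0, and Tspan11 had 1.76 CPM in Iso2-1 against 0 to 0.284 CPM.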

How the results depend on the processing

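The 60 min AMPH count of 1073 members stayed between 962 and 1131 under the alternatives that kept the members. At 24 h AMPH the count of 495 was 256 with the replicate block and 321 to 479 with 1 library left out, and at 24 h saline the count of 395 was 237 with the replicate block and 225 to 381 with 1 library left out. At 24 h the block fit held only libraries whose name occurs in both IP and UF. There were 2 such pairs after AMPH and 2 after saline, so its counts come from fewer libraries than the main fit. The cause of the lower counts was not tested. Same-numbered IP and UF libraries correlated at 0.08, 0.39, 0.12 and 0.11 in their deviations at 60 min AMPH, where 3 of 4 IP libraries correlated best with their own number, against -0.22 to 0.16 for other pairs, and the block gave 1100 there. At 24 h same-numbered pairs lay between -0.03 and 0.04. As 1 pair was under 0.1 and the labels state no pairing, the numbers were not taken to pair libraries. AMPH against saline gave 0 calls under every alternative. Column totals in place of TMM moved the 60 min AMPH log2 folds by a median of -0.12 over all regions tested, and 998 members were then called.

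The rule found 1020 regions with 1 CPM added, 1835 with 0.1 CPM added, 1863 with TMM and 1334 to 1672 with 1 saline IP library left out. Of the named folds under alternatives, 401 kept their direction and call, 12 gained a call, 7 lost it and 8 changed sign, all at members that were not called: Csf1 (-0.40 to 0.13 with 1 library left out), Lars (0.01 with the replicate block, -0.37 to 0.17 with 1 library left out) and Tmem44 (-0.28 to 0.07). Calls were gained at Syt2, Gria4, Tor4a, Shb and Epas1, with the replicate block at Syt2 (adjusted p = 0.0397) and Shb (0.0321). The shallowest 24 h IP library held 650666 counts.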
